A study of Sus scrofa with 2 samples.

Results

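Among the cells of pig skin profiled by droplet single-cell RNA sequencing, 253 of 6998 barcodes met a marker rule for mural cells with more ACTA2. They are called ACTA2-rich here. ACTA2 encodes the smooth muscle actin of contractile cells, and RGS5 encodes a regulator of G protein signalling that is abundant in pericytes. A barcode was counted where it held at least 5 ACTA2 UMIs (unique molecular identifiers, each standing for 1 captured transcript), no fewer ACTA2 than RGS5 UMIs, less than 2% of its UMIs on COL1A1, COL1A2 and COL3A1, and less than 0.3% on KRT5. The 6998 barcodes are those within the study's maxima of 4500 genes, 30000 UMIs and 10% mitochondrial expression. The last was counted here as the share of UMIs on the 13 mitochondrial protein genes. The members were thus chosen by their measured levels of ACTA2, RGS5, the collagens and KRT5, and those levels are given only as a description.

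The study compared skin cells loaded fresh with skin cells that had been cryopreserved in FBS with DMSO, kept in liquid nitrogen and thawed, to learn whether frozen cells can stand in for fresh ones. Dorsal skin came from young, healthy male farm pigs, whose exact age, strain and number per library are not given in the sources used here. The paper describes flow sorting to remove dead cells and doublets, and a magnetic alternative for dead cells. The labels call one library fresh and untreated, although the protocol text attached to both describes freezing. Each condition is 1 library, so there is no replicate, no test was run, and every interval below covers counting error only. The fresh library held 53271738 UMIs in 4379 barcodes and the cryopreserved library 42217632 UMIs in 4860 barcodes.

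Mural cells wrap the endothelial tube of blood vessels. In small arteries they are vascular smooth muscle cells, which contract when calcium activates myosin light chain kinase and myosin slides along actin filaments, and on capillaries they are pericytes, which hold fewer contractile filaments. Genes of the contractile apparatus are driven by serum response factor with its coactivator myocardin through a short DNA motif, the CArG box. The muscle that raises the hairs also contains smooth muscle actin, and the marker rule does not separate it from vessel walls.

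The CArG box was looked for on both strands, in its full form, in the 300 bases before the annotated start of 19534 protein-coding genes (RefSeq, Sscrofa11.1, the build of the deposited counts). It was present in 311 of these windows (1.59%), in 3 of the 29 windows of the contractile apparatus list (10.3%), and in 0 of 21 pericyte windows. The stretch before ACTA2 (chr14:100886733-100886932, minus strand) is shown because this gene defines the class, and it ends at the base before the start. Its capitals mark boxes with the CC and GG ends but a single C or G among the A and T letters between. This form was found in 6.99% of all windows, in 3 of the 29 contractile windows (10.3%) and in 2 of the 21 pericyte windows (9.52%). Boxes with a changed letter in an end were not counted. Below it stand short stretches around full boxes, in capitals, before MYL9 (chr17:39788075-39788124, plus strand) and VCL (chr14:76699917-76699966, plus strand), which encodes vinculin, a link from actin filaments to the membrane. The sequences are read 5′ to 3′ on the gene's strand. A match is a description of the letters and does not show a bound site.
ACTA2: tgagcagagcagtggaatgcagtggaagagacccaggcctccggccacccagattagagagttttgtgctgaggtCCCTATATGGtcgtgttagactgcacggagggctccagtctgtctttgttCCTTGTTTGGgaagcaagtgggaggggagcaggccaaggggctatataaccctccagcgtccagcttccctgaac
MYL9: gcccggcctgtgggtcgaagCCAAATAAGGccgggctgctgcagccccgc
VCL: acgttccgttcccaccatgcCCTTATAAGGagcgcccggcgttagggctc

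ACTA2-rich barcodes numbered 117 of 2775 in the fresh library (4.22%, exact 95% binomial interval 3.50 to 5.03%) and 136 of 4223 in the cryopreserved library (3.22%, interval 2.71 to 3.80%). The order of these shares depended on the maxima, since all 4379 and 4860 barcodes together gave 2.79% in fresh and 2.92% in cryopreserved cells. The same limits with at least 5 RGS5 UMIs and more RGS5 than ACTA2 gave 115 and 188 RGS5-rich barcodes, so that ACTA2-rich barcodes made up 50.4% of fresh and 42.0% of cryopreserved mural barcodes. In the fresh library the rule kept 195 barcodes at the ACTA2 minimum, 119 after the comparison with RGS5 and 117 after the collagen limit. In the cryopreserved library the numbers were 260, 147 and 137, and the KRT5 limit removed 1 more. The libraries shared 6 barcodes in all, none of them a member.

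The range from ACTA2 to RGS5 had no gap at the line that parts the classes, as the plot of ACTA2 against RGS5 UMIs shows. Within 3 UMIs above the line lay 11 fresh and 25 cryopreserved members, whose summed TAGLN and MYH11 level was 4068 and 6594 CPM (counts scaled to a common total per pool of cells). Within 3 UMIs below it lay 4 and 18 barcodes that also held at least 5 ACTA2 UMIs, with 5570 and 5238 CPM. Members with 5 or 6 ACTA2 UMIs numbered 6 and 14 and had 2350 and 2551 CPM of TAGLN and MYH11. The 6 and 20 barcodes with 3 or 4 ACTA2 UMIs that met the rest of the rule had 735 and 1499 CPM. Depth also differed between these groups in the fresh library, with medians of 2840 UMIs in the members and 5532 UMIs outside. In the cryopreserved library the medians were 3764.5 and 3758 UMIs. The class is therefore a range cut by a line.

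**Figure D1:**
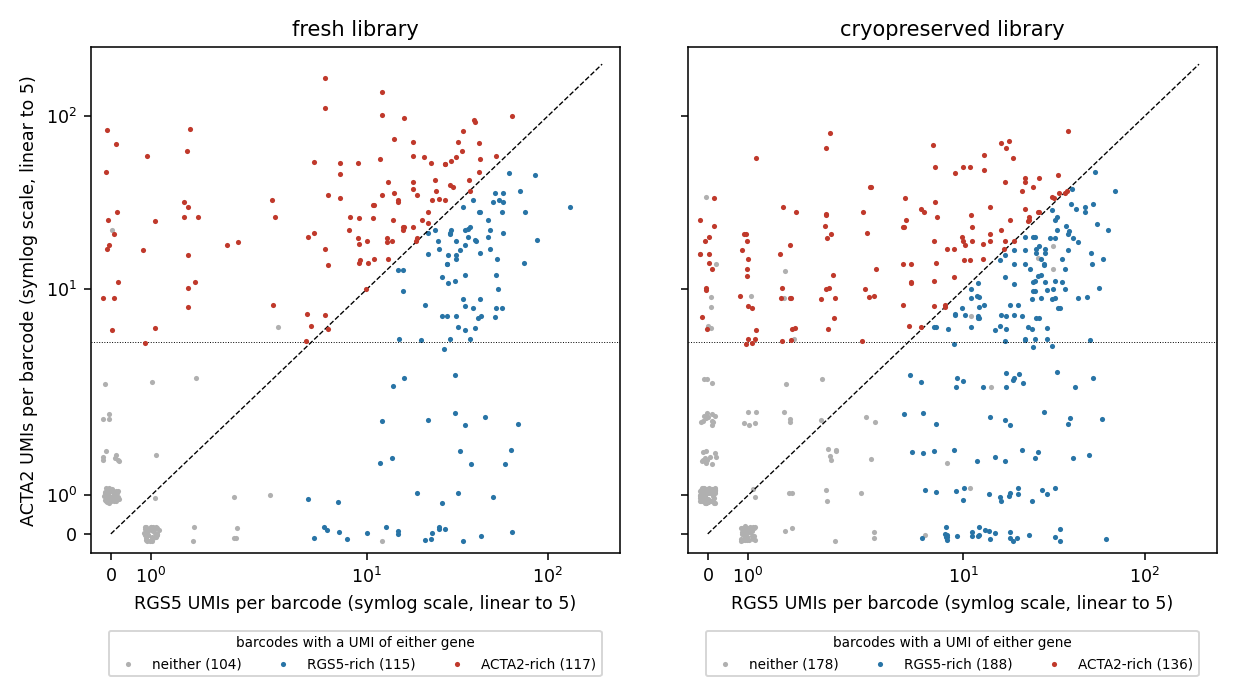
ACTA2 UMIs (vertical) against RGS5 UMIs (horizontal) of each barcode within the maxima that holds a UMI of either gene, fresh library left and cryopreserved library right, with a small random offset so that equal counts can be seen. Red points are the 117 and 136 ACTA2-rich barcodes, blue points the 115 and 188 RGS5-rich barcodes, the dashed line marks equal counts and the dotted line 5 ACTA2 UMIs. Red and blue points meet at the dashed line without a gap.

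ACTA2 itself (chr14:100868145-100886732) ranged from 5 to 166 UMIs per fresh member with a median of 30, and from 5 to 82 per cryopreserved member with a median of 19. As a share of the cell's UMIs the medians were 0.398% and 0.376%. The minimum of 5 ACTA2 UMIs asks for a larger share in shallower cells, so these shares are partly set by the rule. RGS5 was also found in most members. Its median was 10 UMIs in fresh and 5 in cryopreserved cells, and it was at 0 in 12 and 13 of them.

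The members were shallower in the cryopreserved library. The median was 8269 UMIs per fresh member (95% interval from order statistics 7543 to 8718) and 5542 per cryopreserved member (5094 to 6026). The median number of detected genes was 2765 and 2226. After each cell was thinned to 2000 UMIs, which left out 1 and 2 members, the medians were 1150 and 1144 genes. The RGS5-rich barcodes had medians of 7585 and 5194 UMIs. The share of UMIs on mitochondrial genes had a median of 3.12% in fresh and 3.03% in cryopreserved members. Depth therefore differed between the libraries, while the number of genes at equal depth and the mitochondrial share were close.

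Of 29 genes on the list 27 were matched in the files, and of these PDLIM3 was at 0 UMIs in the members of both libraries. The list, which includes ACTA2, summed to 25304 CPM in fresh members, 14137 CPM in fresh RGS5-rich barcodes and 2916 CPM in all other fresh barcodes, where the last group includes the RGS5-rich ones. In the cryopreserved library the sums were 25485, 15164 and 3178 CPM. CPM of the cell classes were scaled with TMM factors, while those near the lines of the rule above were scaled by UMI totals alone. Part of the gap between the mural classes is ACTA2 itself, which the rule used.

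TAGLN (chr9:44561756-44567385), which encodes the actin-binding protein transgelin, had a median of 28 UMIs per fresh member and of 21.5 per cryopreserved member and was missing in 1 member in all. MYH11 (chr3:7002667-7143093), the heavy chain of smooth muscle myosin, had medians of 12 and 8 and was at 0 in 4 and 3 members. Calponin (CNN1, chr2:70183370-70190756), which binds actin and restrains myosin, was at 0 in 32 of 117 and 57 of 136 members and reached 18 and 30 UMIs in the highest. Gamma smooth muscle actin (ACTG2, chr3:69097366-69121542) was at 0 in 61 and 89 members, with highest values of 18 and 25. TAGLN and MYH11 were thus found in nearly all members, and CNN1 and ACTG2, with fewer UMIs per cell, in part of them. Detection also depends on the level of a gene and on depth.

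CNN1 was detected in 72.6% of fresh and 58.1% of cryopreserved members, and after each cell was thinned to 2000 UMIs in 44.8% and 45.5%. The shares in the libraries were thus close at equal depth. In thinned RGS5-rich barcodes CNN1 was detected in 19.6% and 16.7%. T cells should lack the gene, and it was found in 1 of 114 thinned fresh T cells (0.877%) and in 0 of 192 thinned cryopreserved T cells. The latter allows detection at that depth in up to 1.56% of cells and sets no limit on expression. ACTG2 was detected in 47.9% of fresh and 34.6% of cryopreserved members, and in 24.1% and 24.6% after thinning, against 9.82% and 6.67% of thinned RGS5-rich barcodes. It was found in 0 of the thinned T cells of either library. This allows detection at that depth in up to 2.63% of fresh and 1.56% of cryopreserved T cells. Without thinning, ACTG2 was found in 1 of 199 cryopreserved T cells. The T cell reference is the barcodes with at least 2 CD3E UMIs with ACTA2 and RGS5 under 5 UMIs each and the collagens under 2%, 114 fresh and 199 cryopreserved, with medians of 6552 and 4988 UMIs. MYL6, a myosin light chain also found outside muscle, was at 1948 CPM in fresh members, 1112 CPM in fresh T cells and 667 CPM in all other fresh barcodes. Desmin (DES), an intermediate filament of muscle, was low, at 13.7 and 34.1 CPM. MYL9, the regulatory light chain of smooth muscle myosin, was near 0 with 4.89 and 5.05 CPM. A count depends on how well a gene's 3′ end is annotated, and the part of this in the low MYL9 count was not tested.

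**Figure D2:**
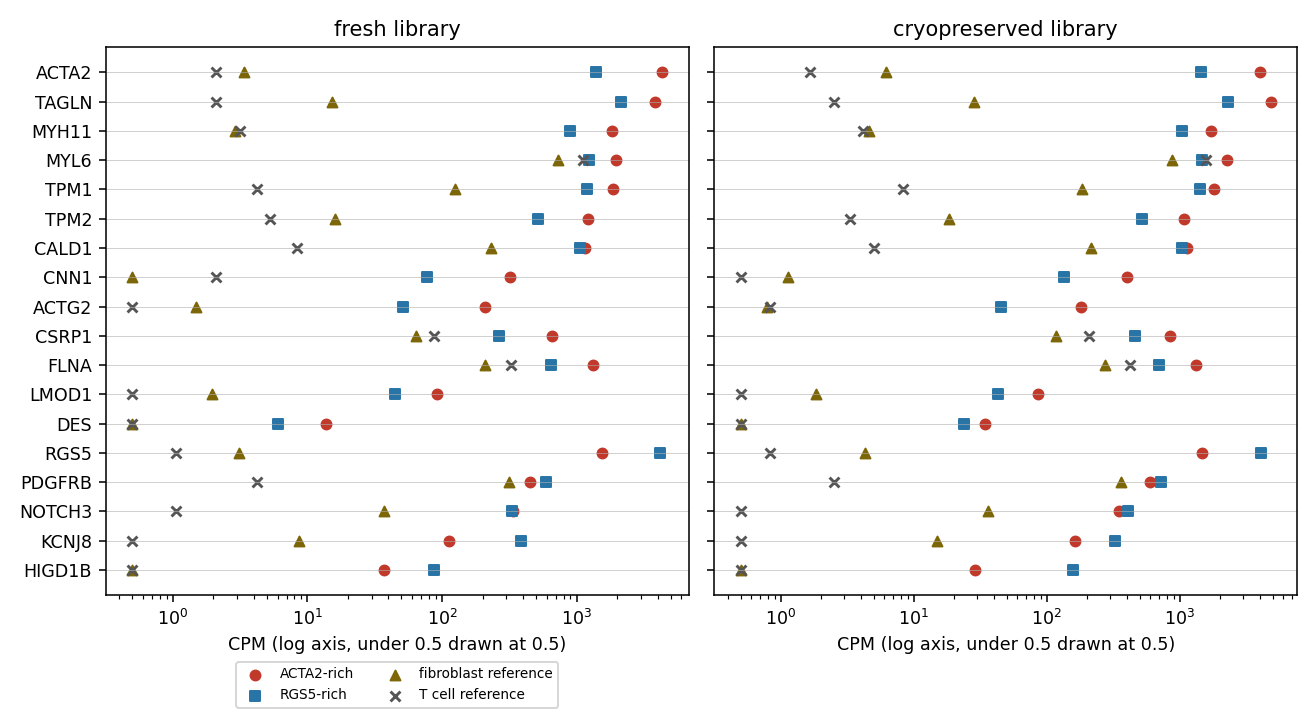
Level of contractile genes and, from RGS5 down, of pericyte genes in CPM of summed UMIs (log axis) in ACTA2-rich barcodes (red circles), RGS5-rich barcodes (blue squares), fibroblast reference barcodes (triangles) and T cell reference barcodes (crosses), fresh library left and cryopreserved library right. Each mark is 1 pool of cells of 1 library. Both mural classes stand far right of the references for most contractile genes, for example MYH11 at 1819 and 899 CPM against 2.90 CPM in the fresh fibroblast reference, and the circles lie right of the squares for contractile genes and left of them for KCNJ8 and HIGD1B.

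Lists of genes that mark other cells of the skin were summed in the members and in all other barcodes. The fibroblast list summed to 2397 CPM in fresh and 3289 CPM in cryopreserved members against 60021 and 61420 CPM in all other barcodes, but the rule limited its collagens, and without them the members had 415 and 635 CPM. DCN, a defining fibroblast gene, had 24.5 and 11.4 CPM. Of 11 endothelial genes, 0 were at 0 UMIs in fresh members and 4 in cryopreserved members, their sums were 241 and 207 CPM against 461 and 340 CPM in all other barcodes, and ESAM was highest with 102 and 141 CPM. CLDN5, VWF, KDR and CDH5 were between 5.87 and 19.6 CPM in fresh members, where 1 cell held 62.5% or more of the UMIs of each, and at 1.26 CPM or less in cryopreserved members. The endothelial markers PECAM1, CDH5, VWF and KDR held at least 3 UMIs in 9 fresh and 3 cryopreserved members.

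The keratinocyte and gland list, whose KRT5 the rule limited, summed to 106 and 84.6 CPM in members against 8823 and 10294 CPM in all other barcodes. On the immune list 5 of 9 matched genes were at 0 UMIs in the members of each library, CD3E, CD163, CD209 and CD207 among them, and CD74, the invariant chain of MHC class II, took nearly all of the sum with 1083 and 1262 CPM. The list summed to 1107 and 1304 CPM in members against 3318 and 4262 CPM in all other barcodes. Detection of CD74 reached 98.3% and 93.4% of members, and after thinning to 2000 UMIs in 83.6% and 81.3% of them and in 90.4% and 94.8% of T cells. The glial and melanocyte list had sums of 2.94 and 1.26 CPM against 4.71 and 3.21 CPM in all other barcodes. The skeletal and cardiac muscle list was no lower in members, at 26.4 against 15.5 CPM in fresh and 17.7 against 17.6 CPM in cryopreserved cells. The adipocyte and erythrocyte list, nearly all of it the globin HBB, was at 115 against 418 CPM in fresh and 167 against 164 CPM in cryopreserved cells.

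ACTA2-rich and RGS5-rich barcodes were then compared within each library to describe what else differs along the range that the rule used. Over 5124 genes with at least 100 UMIs in the 4 pools together, leaving out the genes of the rule, 60 genes (1.17%) were at least 2-fold higher and 70 (1.37%) at least 2-fold lower in ACTA2-rich barcodes of both libraries. The fresh library alone gave 165 higher (3.22%) and 195 lower (3.81%), the cryopreserved library alone 151 (2.95%) and 154 (3.01%). The median log2 ratio over all of these genes was 0.01 in fresh and 0.06 in cryopreserved cells. Across the 5122 genes with a ratio in both, the ratios of the libraries had a Pearson correlation of 0.517, and of 0.699 across the 720 genes with at least 1000 UMIs. Genes are not independent replicates, and the same markers chose the cells of both libraries. Of all genes compared, 1807 had a ratio above 0 in both libraries and 1474 a ratio below 0 in both. Since the rule used this contrast, the counts below are not a test, and a list with 0 called genes is not set apart by that count.

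Of 23 contractile genes compared, 22 had a ratio above 0 in both libraries, the median log2 ratio was 0.85 and 0.73, and 4 were at least 2-fold higher in both (CNN1, ACTG2, TPM2 and PPP1R14A), against 1.17% of all genes. Without the rule's genes the list summed to 20982 against 12740 CPM in the fresh library and 21432 against 13709 CPM in the cryopreserved library. The exception was SYNPO2, an actin-bundling protein, with log2 ratios of -0.01 and -0.26.

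CNN1 was at 320 CPM in fresh ACTA2-rich and 76.9 CPM in fresh RGS5-rich barcodes, a log2 ratio of 2.06 (95% counting interval 1.69 to 2.44), and at 404 and 134 CPM in the cryopreserved library, a log2 ratio of 1.59 (1.31 to 1.89). ACTG2 was at 208 against 51.6 CPM and at 182 against 44.9 CPM, with log2 ratios of 2.01 and 2.02. Both genes were higher in ACTA2-rich barcodes of each library, with intervals above 1. PPP1R14A (chr6:47167105-47174299), an inhibitor of myosin phosphatase that sustains contraction, had the largest ratio on the list. It was at 83.2 against 6.07 CPM in the fresh library and at 66.9 against 4.58 CPM in the cryopreserved library, log2 ratios of 3.78 and 3.87. The RGS5-rich level rests on few UMIs in each library, so the size of these ratios is loosely set. TPM2 (chr1:236402249-236410390), a tropomyosin that lies along actin filaments, was at 1212 against 519 CPM and at 1085 against 518 CPM, log2 ratios of 1.22 and 1.07. MYH11 was at 1819 against 899 CPM (log2 1.02) and at 1725 against 1041 CPM (log2 0.73), which passed 2-fold in the fresh library alone. TAGLN had log2 ratios of 0.85 and 1.06, and CALD1, which ties actin to myosin, of 0.12 and 0.13.

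The 10 genes with the highest ratios, ranked by the smaller of the libraries' values among genes with no dominant cell follow with TPM2 above. PDLIM5, which tethers signalling proteins to filaments, was at 997 against 335 CPM and at 635 against 310 CPM, log2 ratios of 1.57 and 1.03. CSRP1, a LIM protein of smooth muscle, had log2 ratios of 1.33 and 0.87, the actin cross-linker FLNA 1.02 and 0.92, and PDLIM7 0.92 and 0.89. AEBP1, a matrix-associated protein, led the ranking with 221 against 91.0 CPM and 289 against 97.2 CPM, log2 ratios of 1.28 and 1.57. AEBP1 was higher still in the fibroblast reference, at 891 and 1041 CPM, and in all other barcodes, at 314 and 346 CPM. PLCB1, a phospholipase that releases calcium through inositol trisphosphate, had log2 ratios of 1.05 and 1.55, and SPARCL1, a secreted matrix protein, 1.39 and 0.98. PLCB1 was at 534 and 510 CPM in members and higher, at 1019 and 807 CPM, in barcodes rich in PECAM1, CDH5, VWF and KDR. In the fibroblast reference PLCB1 was at 675 and 521 CPM, and in all other barcodes at 417 and 270 CPM. NDUFB1, a subunit of respiratory complex I, had log2 ratios of 1.42 and 0.93, and the calcium sensor NCS1 0.86 and 0.89. The ranking itself fixes that these genes were higher in both libraries.

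Of 13 pericyte genes compared, 10 had a ratio below 0 in both libraries, the medians were -0.39 and -0.34, 2 were at least 2-fold lower in both and 1 at least 2-fold higher, against 1.37% and 1.17% of all genes. HIGD1B, a mitochondrial protein abundant in pericytes, was at 37.2 against 87.0 CPM in fresh and 29.0 against 157 CPM in cryopreserved cells, log2 ratios of -1.23 and -2.43. NDUFA4L2, which dampens the respiratory chain, had log2 ratios of -1.36 and -2.99. CSPG4, the NG2 proteoglycan, went the other way, at 85.2 against 29.3 CPM and 70.7 against 28.4 CPM, log2 ratios of 1.54 and 1.31. PDGFRB, the receptor through which endothelium recruits mural cells, was at 450 against 598 CPM and 601 against 730 CPM, log2 ratios of -0.41 and -0.28. NOTCH3, a receptor that mural cells need to mature, had ratios of 0.02 and -0.21. RGS5 itself, which the rule used, had log2 ratios of -1.42 and -1.48.

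Among the 10 genes with the lowest ratios, KCNJ8, the pore of the ATP-sensitive potassium channel of mural cells, was at 114 against 385 CPM in fresh and 164 against 325 CPM in cryopreserved cells, log2 ratios of -1.76 and -0.99. CHN1, which inactivates Rac, had -1.31 and -1.43, and DLC1 had -1.08 and -1.04. DLC1 was at 590 against 1248 CPM and at 519 against 1067 CPM. PHACTR2 had -1.47 and -1.07, SGIP1 -1.11 and -1.05, and AGAP1 -0.94 and -0.98. FARP1 was at 651 against 1302 CPM and at 569 against 1126 CPM. REM1, a small GTPase that restrains calcium channels, was at 46.0 against 92.0 CPM and at 55.5 against 109 CPM, and RNF166 had -1.18 and -0.95, while the remaining gene of the 10 is unnamed in the files (ENSSSCG00000008240).

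Ion channel, calcium handling and vascular tone genes are given next, beside the same 1.17% and 1.37% of all genes. Of 14 excitability genes compared, 0 were at least 2-fold higher in both libraries and 1 was lower, the chloride channel ANO1, with log2 ratios of -1.58 and -1.09. The medians were 0.01 and 0.22. Of 21 tone receptors and signalling genes 0 were called in either direction, with medians of -0.06 and -0.18. The vasopressin receptor AVPR1A was at 500 against 509 CPM in fresh and 651 against 469 CPM in cryopreserved cells. The endothelin receptor EDNRB was at 262 against 455 CPM and at 376 against 478 CPM, log2 ratios of -0.79 and -0.34, and EDNRA at 151 against 157 CPM and 151 against 125 CPM. The adrenergic receptors ADRA1B and ADRA2A had 0 UMIs in both mural classes and in all other fresh barcodes, and ADRA1A had 14.7 and 17.7 CPM in members.

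Of 21 transcription factor genes compared, 0 were at least 2-fold different in both libraries, and the medians were -0.07 and 0.06. Myocardin (MYOCD, chr12:56931628-57029258), the coactivator of serum response factor in smooth muscle, was at 447 against 228 CPM in the fresh library, a log2 ratio of 0.98 (0.74 to 1.21), and at 213 against 190 CPM in the cryopreserved library, a log2 ratio of 0.17 (-0.13 to 0.47). Of 22 genes of Notch, PDGF and TGF-beta signalling, 2 were at least 2-fold higher in both libraries, against 1.17% of all genes. Among these the growth factor TGFB2 was at 168 against 60.7 CPM in the fresh library and at 140.1 against 60.5 CPM in the cryopreserved library, log2 ratios of 1.47 and 1.21, and the medians of the list were 0.08 and 0.03.

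Of 26 matrix genes compared, 4 were at least 2-fold higher and 1 lower in both libraries, against 1.17% and 1.37% of all genes. MGP, which inhibits calcification of vessel walls, was at 1282 against 272 CPM in the fresh library (log2 2.24, interval 2.05 to 2.43) and at 853 against 257 CPM in the cryopreserved library (log2 1.73, 1.53 to 1.94). MFAP4, a protein of elastic fibres, was at 137 against 19.2 CPM and at 145 against 11.9 CPM, log2 ratios of 2.83 and 3.61. IGFBP5, which binds insulin-like growth factors, was at 592 against 187 CPM and at 639 against 142 CPM, and the laminin chain LAMA3 was at 82.2 against 39.4 CPM and 89.6 against 31.2 CPM. NID1, a linker of the basement membrane, was the lower one with 42.1 against 166 CPM and 45.4 against 133 CPM. COL4A1, the basement membrane collagen, had log2 ratios of -0.54 and -0.32. MGP and MFAP4 were also high in all other barcodes of the fresh library, at 1598 and 237 CPM.

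All 14 immediate early genes compared were above 0 in the fresh library and 7 in both, with medians of 0.49 and 0.01, and 0 were called in both. The median share of mitochondrial UMIs also differed between the classes in the fresh library, 3.12% (2.70 to 3.43) in ACTA2-rich against 2.47% (2.31 to 2.69) in RGS5-rich barcodes, and was 3.03% against 2.90% in the cryopreserved library. Its part in these ratios was not tested. FOS was at 972 against 364 CPM in the fresh library and at 929 against 885 CPM in the cryopreserved library, and EGR1 at 228 against 64.7 CPM and 178 against 149 CPM. Heat shock genes had medians of 0.44 and 0.42 over 14 genes, 10 of them above 0 in both, and HSPB8, a small chaperone of muscle, was the 1 called gene of the list, against 1.17% of all genes, with 213 against 31.3 CPM and 154 against 56.8 CPM. The fold between the classes thus depended on the library for the immediate early genes and had similar medians for the heat shock genes.

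The 11 inflammatory genes had medians that differed between the libraries, -0.22 in fresh and 1.39 in cryopreserved cells, with 4 and 9 of them above 0. In both libraries 2 were called higher, CXCL12 and CXCL10, against 1.17% of all genes, and a single cell held 89.6% of the fresh CXCL10 UMIs of the members. CCL2, which attracts monocytes, was at 5523 against 6433 CPM in fresh and 10854 against 9010 CPM in cryopreserved cells, log2 ratios of -0.22 and 0.27. CXCL2, which attracts neutrophils, was lower in ACTA2-rich barcodes of both libraries, at 5480 against 9794 CPM and 7541 against 11899 CPM. CCL19, a lymphocyte chemokine, was at 231 against 159 CPM in the fresh library and at 654 against 44.9 CPM in the cryopreserved library, where the highest cell held 18.7% of the members' UMIs. The sign of the CCL2 ratio thus differed between the libraries, while CXCL2 was lower and CXCL12 and CCL19 were higher in ACTA2-rich barcodes of both.

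Some values of other cell types moved with this contrast. In the cryopreserved RGS5-rich barcodes the keratinocyte and gland list summed to 970 CPM against 84.6 CPM in ACTA2-rich barcodes, with KRT10 at 467 CPM, and genes of dividing cells to 364 against 119 CPM. In the fresh library these sums were 146 against 106 CPM and 67.8 against 51.9 CPM. The endothelial list was at 249 CPM in RGS5-rich against 241 CPM in ACTA2-rich barcodes in fresh cells. In cryopreserved cells it was higher in ACTA2-rich barcodes, at 168 against 207 CPM. The 2 endothelial genes compared had median log2 ratios of 0.20 and 0.79. The fibroblast list without the rule's collagens, most of it COL6A3, was at 741 CPM in RGS5-rich against 415 CPM in ACTA2-rich barcodes in fresh and 806 against 635 CPM in cryopreserved cells, and its 2 genes compared had median log2 ratios of -0.83 and -0.99. With the collagens, which the rule limited in both classes, the list was at 2527 against 2397 CPM in fresh and, the other way round, at 2841 against 3289 CPM in cryopreserved cells. The MHC class II genes SLA-DRA, SLA-DRB1 and SLA-DQB1 are among the 70 lower genes, and 1 cell held 91.6%, 97.3% and 92.5% of their UMIs in the cryopreserved RGS5-rich barcodes. They are named here after their values were seen. The part of these cells in the other ratios was not tested.

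**Figure D3:**
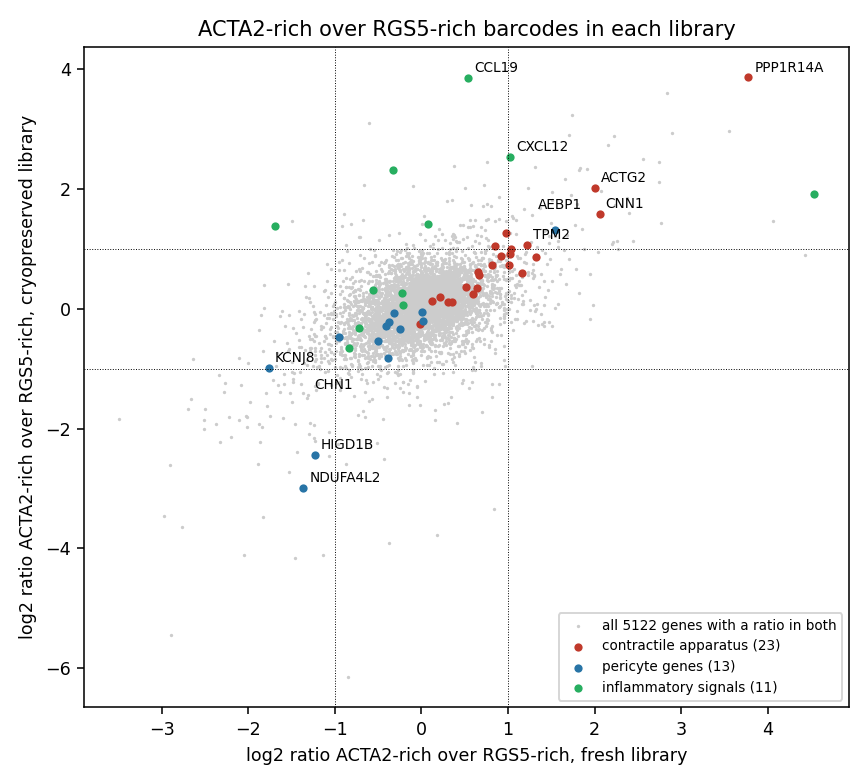
Log2 ratio of ACTA2-rich over RGS5-rich barcodes for each gene, fresh library on the horizontal and cryopreserved library on the vertical axis, with grey points for all 5122 genes, red for 23 contractile, blue for 13 pericyte and green for 11 inflammatory genes. Dotted lines mark 2-fold in each direction. Red points lie above 0 on both axes with the exception of SYNPO2, most blue points lie below 0, and green points scatter, with CCL19 high on the vertical axis alone.

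Members also varied among themselves. In each library the share of a cell's UMIs on every gene was correlated with its share on ACTA2, over 117 and 136 cells that share a library each. Of the 3576 genes detected in at least 20% of members in both libraries, the 10 with the highest Spearman correlation, ranked by the lower library, were led by TAGLN (0.73 and 0.70), MYL6 (0.66 and 0.66), TPM1 (0.64 and 0.62) and TPM2 (0.65 and 0.61). CSRP1 (0.55 and 0.55), FLNA (0.56 and 0.50), MYH11 (0.55 and 0.47) and DSTN (0.45 and 0.46), which severs actin filaments, followed, together with NET1 (0.50 and 0.49) and ITIH4 (0.51 and 0.44), a secreted protein of the inter-alpha-trypsin inhibitor family. These are correlations across cells of sparse counts and are given as a description.

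Members were then split by the share of RGS5 in the sum of ACTA2 and RGS5 UMIs, into 0 to 10%, over 10 to 30% and over 30 to 50%. The bins hold 25, 39 and 53 fresh and 32, 52 and 52 cryopreserved members and are cuts of a range. Depth went with them, with medians of 9171, 8368 and 7357 UMIs in fresh and 6319, 5708 and 5304 UMIs in cryopreserved members. CPM in the bins are scaled by the bin's own UMI total, without TMM factors.

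The contractile apparatus was no lower in members with more RGS5. Without ACTA2 its sum was 20606, 21797 and 22865 CPM along the fresh bins and 19874, 21296 and 22895 CPM along the cryopreserved bins. MYH11 was at 1412, 1716 and 2334 CPM in the fresh bins and at 1634, 1673 and 1861 CPM in the cryopreserved bins. PPP1R14A ran the other way, at 130, 113 and 41.7 CPM and at 135, 67.9 and 20.4 CPM. MYH11 was thus highest and PPP1R14A lowest in the members with most RGS5.

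CACNB2 (chr10:44321954-44887410), a subunit of the voltage-gated calcium channel, was at 384, 1236 and 1647 CPM along the fresh bins and at 190, 638 and 1055 CPM along the cryopreserved bins. PLCB4, a phospholipase of the inositol trisphosphate pathway, was at 80.5, 96.0 and 213 CPM along the fresh bins and reached 40.7 and 238 CPM in the upper cryopreserved bins. CALCRL, the receptor subunit for vasodilator peptides of the calcitonin family, was at 13.4, 32.0 and 85.8 CPM and at 10.0, 33.9 and 54.4 CPM. All of these were higher with more RGS5 in both libraries, like PDGFRB at 344, 486 and 529 CPM and 430, 635 and 691 CPM, and CSPG4 at 35.8, 93.1 and 115 CPM and 35.0, 78.1 and 88.4 CPM. Markers of other cells moved along the bins as well. The endothelial list summed to 143, 140 and 407 CPM along the fresh bins and to 145, 282 and 177 CPM along the cryopreserved bins. PECAM1, a junction protein of endothelium, was at 22.3, 34.9 and 120 CPM along the fresh bins, and at 132 CPM in the middle and 3.40 CPM in the highest cryopreserved bin. KDR and PROX1 were at 49.0 and 36.8 CPM in the highest fresh bin, each detected in 3.77% of its members. The keratinocyte and gland list without KRT5 was at 40.2, 43.6 and 152 CPM along the fresh bins, and at 50.9 and 40.8 CPM in the upper cryopreserved bins. CALCRL is also abundant in endothelium, and the part of such cells in these levels was not tested.

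The inflammatory genes did not run one way along the bins. CCL2 was at 9110, 5453 and 4238 CPM along the fresh bins and at 13614, 12257 and 7702 CPM along the cryopreserved bins. CCL19 was at 519, 288 and 51.5 CPM and at 1319, 482 and 381 CPM, and CXCL12 at 121, 55.3 and 31.9 CPM and 275, 132 and 68.0 CPM. IL6 was at 3174, 1858 and 1052 CPM in the fresh bins and at 3058, 4005 and 1630 CPM in the cryopreserved bins, where the middle bin was highest. CXCL2 was lowest in the members with least RGS5, at 2905, 7212 and 6050 CPM and at 7045, 8235 and 7277 CPM. VCAM1, an adhesion molecule for leukocytes, was at 594, 587 and 1030 CPM and at 495, 811 and 902 CPM. The highest cell held 19.7% of the members' IL6 UMIs in fresh and 11.9% in cryopreserved cells. COL6A3, a collagen chain of fibroblasts and mural cells, was at 697, 361 and 154 CPM and at 664, 604 and 548 CPM. Other fibroblast genes differed in direction. DCN was at 4.47, 43.6 and 22.1 CPM along the fresh bins, while in the cryopreserved library it was highest in the lowest bin, above 10.2 and 6.80 CPM in the others. LUM, a collagen-binding proteoglycan, had 0 UMIs in the lowest fresh bin and was at 87.2 and 7.35 CPM in the others, and in the cryopreserved library it was highest in the middle bin with 23.8 CPM. COL1A1 was at 1064, 936 and 441 CPM along the fresh bins and at 1659, 1171 and 776 CPM along the cryopreserved bins. COL1A2 was at 997, 788 and 532 CPM and at 1079, 648 and 582 CPM. DCN and LUM were thus not highest in the lowest fresh bin, where the collagens were. The part of fibroblast transcripts in the levels of CCL2, CCL19 and CXCL12 was not tested.

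**Figure D4:**
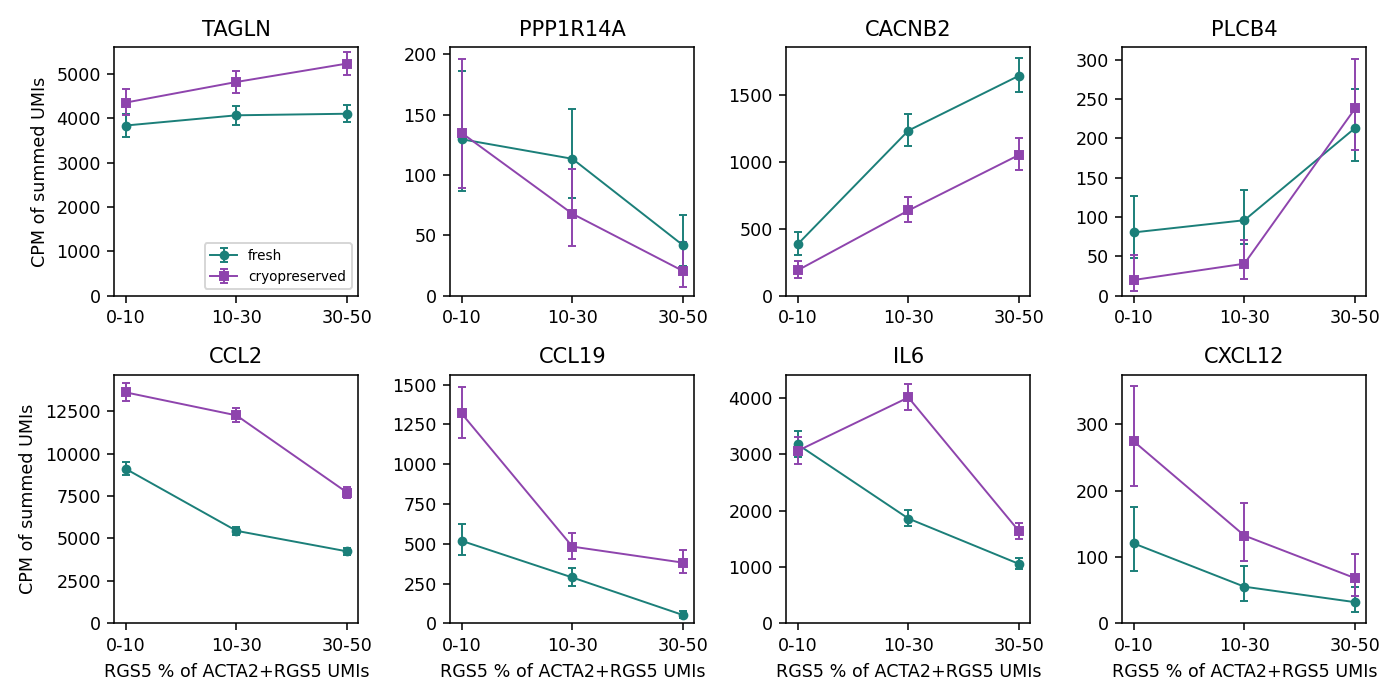
Level in CPM of summed UMIs (vertical axes start at 0) of 8 genes in the 3 bins of the RGS5 share of ACTA2 and RGS5 UMIs among ACTA2-rich barcodes, for the fresh (circles) and cryopreserved library (squares), with exact 95% Poisson intervals of the summed counts. PPP1R14A, CCL2, CCL19 and CXCL12 are highest in the lowest bin of both libraries, and CACNB2 and PLCB4 in the highest bin.

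The members of the cryopreserved library were compared with those of the fresh library. Over 3173 genes with at least 100 UMIs in both pools together, 42 (1.32%) were at least 2-fold higher and 30 (0.945%) at least 2-fold lower in the cryopreserved members, and the median log2 ratio was -0.01. With 1 library each, the condition and everything else that sets these libraries apart cannot be told apart.

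Leaving out ACTA2, 0 of 23 contractile genes compared passed 2-fold in either direction, which lies near the 1.32% and 0.945% of all genes, with a median log2 ratio of -0.16 and a range from -0.51 for ACTN1 to 0.62 for SMTN. ACTA2 was at 4321 CPM in fresh and 4052 CPM in cryopreserved members (log2 -0.09, interval -0.16 to -0.03), TAGLN at 3846 and 4831 CPM (log2 0.33, 0.26 to 0.39) and MYH11 at 1819 and 1725 CPM (log2 -0.08, -0.18 to 0.03). The 12 excitability, 17 tone receptor, 11 pericyte and 14 heat shock genes compared also gave 0 calls, with medians of -0.19, 0.01, 0.19 and 0.09. Of 13 immediate early genes 0 were called, with a median of -0.11.

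MYOCD was at 447 CPM in fresh and 213 CPM in cryopreserved members, a log2 ratio of -1.07 (-1.33 to -0.81). In RGS5-rich barcodes its log2 ratio was -0.26 and in all other barcodes -0.14. That difference was not tested. EBF2, a transcription factor of the early B cell factor family, was the other regulator called, at 39.2 and 99.7 CPM, and a single cell held 21.5% of its UMIs in cryopreserved members. Among the inflammatory genes CCL19 was at 231 and 654 CPM (log2 interval 1.28 to 1.73) and CXCL12 at 57.8 and 144 CPM, a log2 ratio of 1.32 (0.85 to 1.80). CCL2 was at 5523 and 10854 CPM, a log2 ratio of 0.97 (0.93 to 1.02). Some fibroblast genes were also higher in cryopreserved members, COL6A3 at 336 and 596 CPM (log2 0.83) and COL1A1, which the rule limited, at 724 and 1142 CPM, while DCN was at 24.5 and 11.4 CPM and LUM at 32.3 and 18.9 CPM. Their part in the chemokine ratios was not tested.

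Mitochondrial ND3 had the lowest ratio of the comparison among genes with no dominant cell, 604 against 120 CPM, a log2 ratio of -2.33, and ND4L the highest, 46.0 against 175 CPM, a log2 ratio of 1.93. Both are subunits of respiratory complex I. In RGS5-rich barcodes their ratios were -2.48 and 1.39 and in all other barcodes -2.35 and 0.87, so neither direction was limited to the members. Of the other genes ranked highest, IFITM3, an antiviral membrane protein, was at 157 and 416 CPM (log2 1.41), ARPC1B, a subunit of the actin-nucleating Arp2/3 complex, at 135 and 341 CPM (1.33), CDC42EP5 at 54.8 and 143 CPM (1.38), the activin-binding FSTL3 at 75.4 and 188 CPM (1.32) and the splicing factor PHF5A at 42.1 and 98.4 CPM (1.23). ARPC1B had ratios of 1.06 in RGS5-rich and 1.47 in all other barcodes. After ND3 the lowest named genes were MYOCD, FGFR1, a receptor of fibroblast growth factors (-1.06), SMG6 (-1.05), AP2A1 (-1.04), GKAP1 (-1.03), ABTB2 (-1.02) and FCHSD2 (-1.01). FGFR1 was at 103 and 49.2 CPM and had a ratio of -0.02 in RGS5-rich and -0.42 in all other barcodes. FCHSD2, which curves membranes during endocytosis, was at 697 and 346 CPM.

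**Figure D5:**
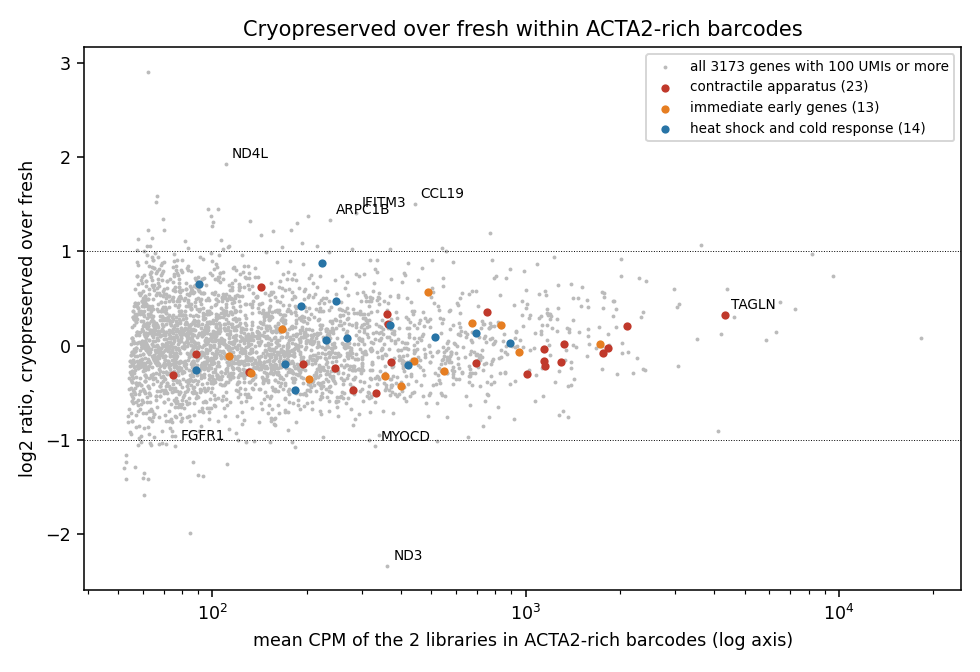
Log2 ratio of cryopreserved over fresh members for each of 3173 genes (vertical) against the mean CPM of both libraries (horizontal, log axis), with contractile genes in red, immediate early genes in orange and heat shock genes in blue. Dotted lines mark 2-fold. The 23 contractile genes lie between -0.51 and 0.62, inside the dotted lines, while ND3, ND4L, MYOCD and CCL19 lie outside.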

How the data were processed

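Single-cell suspensions of pig dorsal skin were profiled with the 10x Genomics Chromium system. The authors deposited raw UMI counts per gene and barcode, and the processing notes name Cell Ranger 4.0.0, STAR 2.5.1b and Sscrofa11.1. Gene names came from the feature files, and for 772 of 31908 genes from a table of IDs, which left 15732 listed by ID, unnamed or with a name shared by several genes. UMI counts were summed over the barcodes of each class and library, and converted to CPM with TMM factors (edgeR 4.0.16, R 4.3.3). Ratios carry exact 95% intervals given the sum of both counts. A gene was called at 2-fold with at least 100 UMIs. The ratio and cut were tried on simulated pool counts, scaled by totals, with planted changes well above the cut. That trial held no single cells and took each pair of pools alone. It does not cover dominant cells, folds near the cut or calls in both libraries. Doublets were limited by the study's maxima, the marker limits and, where it was applied, the flow sort, and no caller was run.

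Members and the 18 gene lists were chosen with earlier results of these data known. Named genes are those of the lists, the 10 highest and 10 lowest ratios per contrast with no cell over 10% of a pool's UMIs, and the 10 highest correlations with ACTA2. ACTA2 and RGS5 limits, cell limits, scaling (DESeq2 1.42.0 size factors or totals), UMI filters, thinning and endothelial UMIs were varied. The library kit reads transcripts at the 3′ end, so a count depends on how well a gene's end is annotated. Barcodes over the maxima were left out. A few items are not reported here.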

Additional observations from a re-analysis of the deposited data

Results flagged for a closer look

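In the fresh library 5 barcodes, and in the cryopreserved library 6, met the marker rule but lay over one of the study's maxima and so enter no comparison. Of these, 4 fresh and 2 cryopreserved barcodes were over the limit on genes or UMIs, and 1 and 4 over the limit on mitochondrial UMIs. They are given because they carry the same ACTA2 signal in barcodes outside the analysed set.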

How the results depend on the processing

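No paired analysis was possible because each condition is 1 library. None of the 60 ratios of ranked genes changed sign in 600 values under the alternatives. The order of the shares of members did. The share of members, 4.22% in the fresh library, was 3.12% without the mitochondrial limit, 2.79% without any maxima and 2.59% with ACTA2 at least 2 times RGS5, a choice made after seeing the data. Without any maxima the cryopreserved share of 2.92% was above the fresh one, and without the mitochondrial limit (140 of 4669 barcodes, interval 2.53 to 3.53%) it was close to it. The share of 3.22% in the cryopreserved library was 2.51% with at least 10 ACTA2 UMIs, 2.59% with cells thinned to 2000 UMIs and 2.27% with ACTA2 at least 2 times RGS5. That last choice moved the fresh median depth from 8269 to 8741 UMIs. The median log2 ratio of all genes changed sign under some alternatives. For cryopreserved over fresh it was between -0.0695 with total UMIs in place of TMM and 0.0039 with no filter. For ACTA2-rich over RGS5-rich it was between -0.0468 with no filter and 0.0635 with thinned cells in the fresh library, and between -0.026 with total UMIs and 0.0818 with at least 300 UMIs in the cryopreserved library. Counts of called genes depended most on the filter. With at least 300 UMIs, cryopreserved over fresh gave 14 higher and 5 lower, and ACTA2-rich over RGS5-rich 23 higher and 29 lower. With no filter the same 4 counts, in that order, were 2291, 2732, 519 and 763. The 42 genes higher in cryopreserved members became 26 with at least 10 ACTA2 UMIs, 18 with thinned cells and 24 with ACTA2 at least 2 times RGS5, which also moved the 70 genes lower in ACTA2-rich than RGS5-rich barcodes to 111. For cryopreserved over fresh, the 3173 genes compared became 2872 with at least 10 ACTA2 UMIs and 2648 with thinned cells. With ACTA2 at least 2 times RGS5 they became 2341. The filters also change the number of genes compared, and the cause of the moves was not tested otherwise. Over all alternatives, 59 other values of these shares, depths and counts stayed within their interval or within 1.5 times, as did 587 ratios of named genes within their intervals, while 13 moved in the same direction. Genes under the 100 UMI minimum were not compared.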

Other observations

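Outside the gene lists, and chosen after their values were seen, the following genes differed between ACTA2-rich and RGS5-rich barcodes in both libraries. THBS1, a matrix protein that binds TGF-beta, was at 308 against 41.5 CPM in the fresh and 294 against 38.5 CPM in the cryopreserved library, log2 ratios of 2.89 and 2.93, with 36.6% of the fresh RGS5-rich UMIs in a single cell. FABP4, a carrier of fatty acids, was at 261 against 64.7 CPM and at 391 against 97.2 CPM, and SORBS2, an adaptor of actin filaments, at 256 against 38.4 CPM and 227 against 41.3 CPM. GJA5, a gap junction protein, was at 80.3 against 21.2 CPM and at 55.5 against 11.0 CPM. On the other side, LPL, the lipase of capillary walls, was at 90.1 against 509 CPM and at 129 against 412 CPM, and APOE, a lipid carrier, at 107 against 512 CPM and 250 against 591 CPM. UNC5D, a netrin receptor, was at 55.8 against 416 CPM and at 69.4 against 425 CPM, log2 ratios of -2.90 and -2.61. The marker rule used this contrast, so these values describe the cut and are not a test of it.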
